A study of Mus musculus with 20 samples.

Results

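The genes described here mark Trpm5-expressing microvillar cells of the olfactory epithelium and the tuft cells of other epithelia. They are Trpm5, Pou2f3, Chat, Il25, Avil, Alox5ap, Ltc4s and Hepacam2. Every probe set annotated to a listed gene was taken, which gave 1 probe set for each gene, 8 of the 22206 gene probe sets of the array. The rule uses gene names and no measured values. The 8 genes and the lists used below were, however, chosen with earlier results of these data known.

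Microvillar cells are non-neuronal cells that lie among the supporting cells at the surface of the olfactory epithelium and carry short apical protrusions in place of olfactory cilia. One class of them expresses the cation channel TRPM5, is built under the transcription factor POU2F3 and shares much of its gene programme with the tuft cells of gut and airway, which sense luminal stimuli through a pathway first known from taste cells. Cells of this family are known to signal to their neighbours through acetylcholine, through interleukin 25 and through cysteinyl leukotrienes.

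The samples were sorted cells of the olfactory mucosa of S100a5-tauGFP mice, in which green fluorescent protein (GFP) is tied to S100a5, a gene of olfactory sensory neurons whose transcription follows their activity. The 30 mice, of both sexes and 7 to 12 weeks old, were each kept for 40 h in a chamber flushed with clean air at 3.1 L/min, and from 26 h on received pulses of 10 s every 20 min of filtered air (vehicle) or of odorant. The sample labels name the odorant as an artificial cigarette smoke odor, while the design text of the series names bourgeonal, so it is called the odor here. Tissue of 3 mice was pooled, which gave 5 vehicle and 5 odor pools, and each pool was sorted into GFP- and GFP+ cells, so that 4 groups of 5 samples were measured on Clariom S arrays: vehicle GFP-, vehicle GFP+, odor GFP- and odor GFP+. All animals carried the reporter, so the controls were reporter mice given air. GFP- is defined only by lack of fluorescence, and its arrays held neurons as well: the mature-neuron genes Omp, Gnal and Stoml3 had group means from 18.91 to 19.56 on the log2 scale in both fractions.

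Values are log2 signals, on which a difference of 1 is a doubling. Replicate 5 stood apart in every group, with array medians of 7.03 to 7.46 on its 4 arrays against 6.06 to 6.39 on the other 16. The vehicle GFP- array of replicate 1 correlated least with its group (mean r = 0.895), followed by vehicle GFP- replicate 5 at 0.941. S100a5 was higher in GFP+ than in GFP- cells by 1.30 in vehicle pools (adjusted p = 0.0368, limma) and by 2.15 in odor pools (adjusted p = 0.00131, limma). The vehicle call was lost when vehicle replicate 2, 3 or 5 or odor replicate 1 or 3 was left out (adjusted p from 0.0531 to 0.158), and also with quantile normalization or without both pools numbered 5 (0.0708 and 0.123). As a guide to background, the 23 background control probe sets had medians from 5.14 to 6.34 over the arrays, while their own means, which depend on base composition, ran from 2.52 to 7.14. A group mean at or below 6.34 is called near background, and a difference that ends there is given as at least that large. Where both means are near background, levels are given in place of a difference. These are bulk samples, in which fewer cells of a type and less RNA per cell cannot be told apart.

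Promoter sequences of 5 of the 8 genes were given in the RefSeq table used (GRCm38.p6), and Pou2f3, Il25 and Alox5ap are named only. POU-family factors such as POU2F3 are known to recognise the octamer ATGCAAAT. The octamer and its overlapping parts ATGCAAA and TGCAAAT were searched on both strands in the 250 bases before each start, after the sequences had been seen. The windows of Trpm5 and Hepacam2 are shown because these genes had the largest differences between fractions, and those of Avil and Chat because they hold a 7-letter part, set in capitals. They lie at chr7:143094643-143094892 on the minus strand (Trpm5), chr6:3494499-3494748 on the minus strand (Hepacam2), chr10:127000459-127000708 on the plus strand (Avil) and chr14:32465910-32466159 on the minus strand (Chat), and are written 5′ to 3′ along the gene.
Trpm5: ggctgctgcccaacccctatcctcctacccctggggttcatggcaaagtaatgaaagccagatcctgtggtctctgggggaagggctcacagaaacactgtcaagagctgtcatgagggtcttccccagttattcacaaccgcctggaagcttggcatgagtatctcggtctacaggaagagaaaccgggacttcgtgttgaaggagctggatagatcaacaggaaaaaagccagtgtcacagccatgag
Hepacam2: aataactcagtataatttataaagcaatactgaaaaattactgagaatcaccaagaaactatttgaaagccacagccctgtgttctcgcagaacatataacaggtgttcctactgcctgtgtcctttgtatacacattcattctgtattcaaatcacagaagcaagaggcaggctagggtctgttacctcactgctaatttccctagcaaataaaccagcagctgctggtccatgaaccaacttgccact
Avil: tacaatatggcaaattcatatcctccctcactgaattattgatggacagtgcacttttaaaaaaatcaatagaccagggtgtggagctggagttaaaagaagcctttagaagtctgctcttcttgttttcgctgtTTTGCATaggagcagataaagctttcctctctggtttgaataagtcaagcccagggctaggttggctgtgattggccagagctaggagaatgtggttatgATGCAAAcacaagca
Chat: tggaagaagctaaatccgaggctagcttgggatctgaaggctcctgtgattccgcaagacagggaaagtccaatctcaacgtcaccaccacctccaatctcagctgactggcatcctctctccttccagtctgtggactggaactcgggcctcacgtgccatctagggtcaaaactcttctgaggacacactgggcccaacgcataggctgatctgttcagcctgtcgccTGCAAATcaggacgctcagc
The full octamer was in none of the 5 windows (0 of 5) and in 1.60% of 32851 promoter windows of that length. ATGCAAA was in 4.12% of all windows and, of the 5, only in that of Avil, on the gene's strand at bases 15 to 9 before the start and on the opposite strand at bases 115 to 109. TGCAAAT was in 3.56% of all windows and, of the 5, only in that of Chat, at bases 20 to 14 before the start. The windows of Trpm5, Hepacam2 and Ltc4s held none of these letters. The windows of Avil and Hepacam2 lie inside the annotated genes (chr10:127000065-127020994 and chr6:3457089-3498322), so the start used for these genes is an internal one. A match is a description of letters and not a binding site, and its lack says nothing of the factor.

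The first question was how the genes were divided between the fractions, tested on how far GFP+ lay from GFP- cells of the same pool. Trpm5, Hepacam2, Alox5ap, Pou2f3 and Ltc4s were lower in GFP+ than in GFP- cells in vehicle pools, in 5 of 5 pools each, and again in odor pools, in 5 of 5 pools each. Avil, Il25 and Chat did not pass the test in either condition, and no member was higher in GFP+ cells. In vehicle pools 5 of 8 members were thus called lower, where 6.86% of all probe sets were called lower and 2.26% higher (adjusted p below 0.05, limma with Benjamini-Hochberg adjustment over 22206 probe sets). In odor pools it was also 5 of 8, where 5.82% of all probe sets were called lower and 2.07% higher. At an unadjusted p below 0.05 were 6 of the 8 members in vehicle and 7 in odor pools, against 18.1% and 16.0% of all probe sets. The median difference of the 8 genes was -1.56 in vehicle and -1.63 in odor pools, and that of all probe sets was 0.09 and 0.08. Centring each array on its median moved the median of all probe sets to 0.33 and 0.29, with 1169 instead of 501 probe sets called higher in vehicle and 807 instead of 460 in odor pools, and left the same 5 members called.

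**Figure D1:**
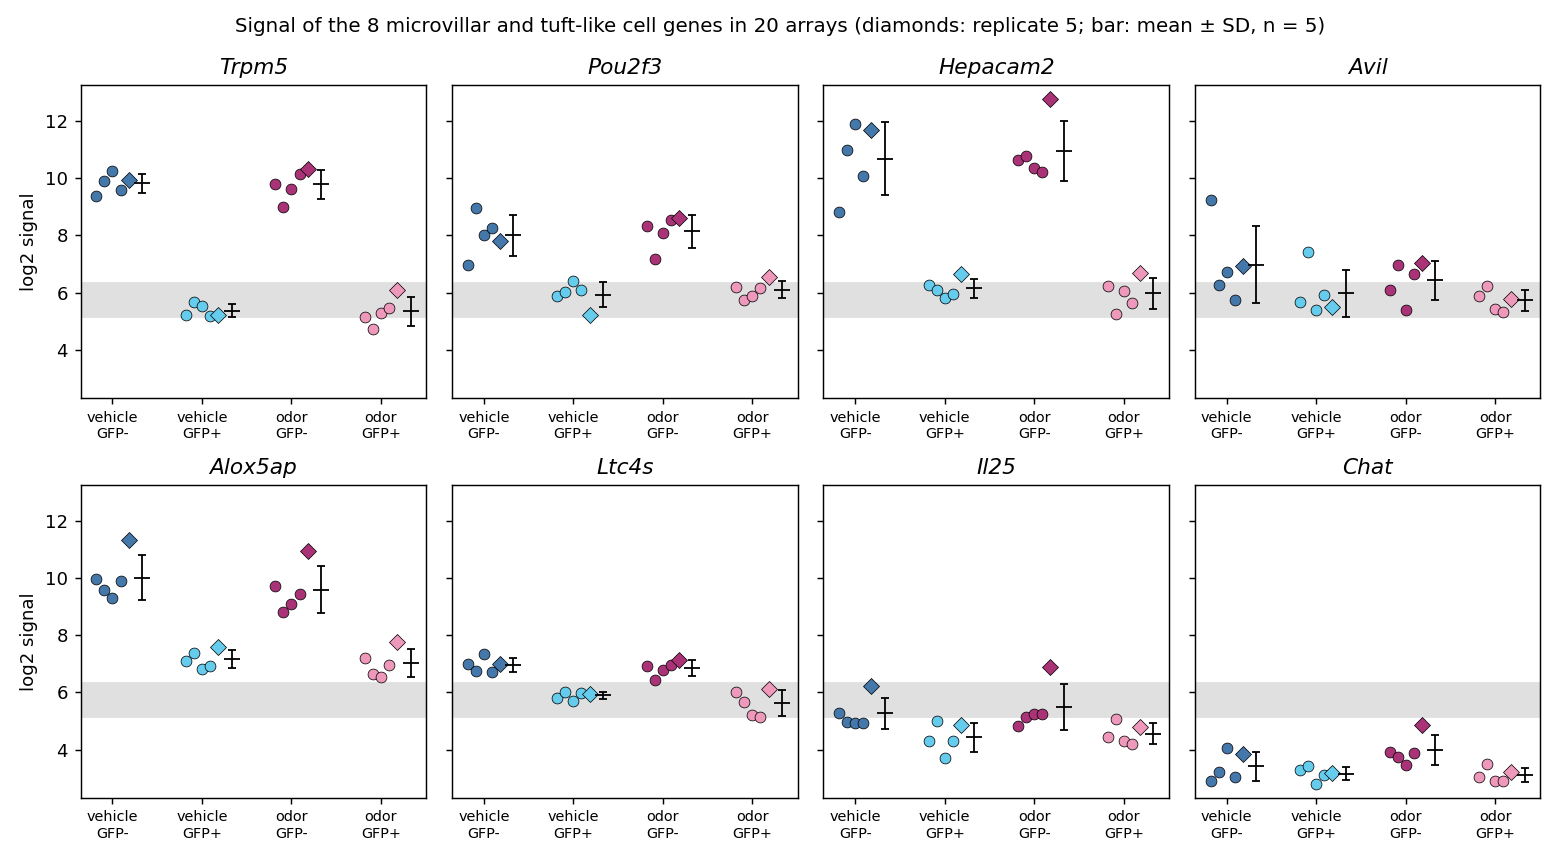
Log2 signal of the 8 genes (vertical axis, 1 panel per gene) in the 5 arrays of each of the 4 groups (horizontal axis), with diamonds for replicate 5 and a bar for the mean ± SD. The grey band runs from 5.14 to 6.34, the range of the background control medians. Trpm5, Hepacam2, Pou2f3, Alox5ap and Ltc4s separate by fraction in both conditions, while Chat lies below the band in all 20 arrays.

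Pou2f3 encodes the POU-domain transcription factor without which tuft cells and Trpm5 microvillar cells do not form. In vehicle GFP- cells its log2 signal was 6.96, 8.97, 8.01, 8.24 and 7.81 in replicates 1 to 5, and in vehicle GFP+ cells it was 5.89, 6.03, 6.40, 6.09 and 5.23. In odor GFP- cells it was 8.32, 7.17, 8.07, 8.55 and 8.61, and in odor GFP+ cells 6.19, 5.76, 5.89, 6.17 and 6.55. The fractions did not overlap in either condition, and the lowest GFP- sample was vehicle replicate 1. The group means were 7.999 ± 0.726 and 8.14 ± 0.59 in vehicle and odor GFP- cells and 5.93 ± 0.43 and 6.11 ± 0.31 in the GFP+ cells (SD, n = 5 each), the latter both near background. Pou2f3 was therefore at least 4.20-fold lower in GFP+ cells of vehicle pools (log2 difference -2.07, SE 0.26, adjusted p = 0.000123, limma) and at least 4.09-fold lower in odor pools (-2.03, adjusted p = 0.000162).

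Trpm5 encodes the calcium-activated cation channel that depolarises these cells at the end of the taste-like cascade. In vehicle GFP- cells it read 9.39, 9.90, 10.26, 9.60 and 9.95, and in vehicle GFP+ cells 5.23, 5.68, 5.52, 5.19 and 5.20. Odor GFP- cells gave 9.81, 8.998, 9.63, 10.16 and 10.32, and odor GFP+ cells 5.16, 4.72, 5.28, 5.48 and 6.10. Every GFP- array lay above every GFP+ array, and all 4 groups were narrow (SD 0.22 to 0.52). The difference within a pool lay between -4.16 and -4.74 in the 5 vehicle pools and between -4.22 and -4.68 in the 5 odor pools, the narrowest spread of the 8 genes in both conditions. Trpm5 was at least 21.9-fold lower in GFP+ cells of vehicle pools (-4.45, SE 0.18, adjusted p = 4.0e-09, limma) and at least 21.6-fold lower in odor pools (-4.44, adjusted p = 4.9e-09), with GFP+ means near background.

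Hepacam2 encodes an immunoglobulin-domain membrane protein that is used as a tuft cell marker and is also known from other rare epithelial cells. Vehicle GFP- cells gave 8.80, 10.97, 11.89, 10.07 and 11.67, and vehicle GFP+ cells 6.28, 6.10, 5.80, 5.94 and 6.64. Odor GFP- cells gave 10.62, 10.78, 10.35, 10.20 and 12.76, and odor GFP+ cells 6.22, 5.27, 6.07, 5.66 and 6.70. The fractions did not overlap, but the GFP- samples were spread widely, from 8.80 in vehicle replicate 1 to 12.76 in odor replicate 5. The difference within a pool ran from -2.53 in vehicle pool 1 to -6.08 in vehicle pool 3 and from -4.28 to -6.06 in odor pools. Hepacam2 was at least 23.1-fold lower in GFP+ cells of vehicle pools (-4.53, SE 0.41, adjusted p = 7.1e-06, limma) and at least 31.1-fold lower in odor pools (-4.96, adjusted p = 3.4e-06). Without vehicle replicate 1 the vehicle difference was -5.03.

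Avil encodes advillin, an actin-bundling protein of the microvillar tuft. It read 9.22, 6.27, 6.72, 5.75 and 6.95 in vehicle GFP- cells and 5.66, 7.41, 5.41, 5.93 and 5.50 in vehicle GFP+ cells. In odor GFP- cells it read 6.11, 6.98, 5.41, 6.66 and 7.03, and in odor GFP+ cells 5.89, 6.25, 5.43, 5.33 and 5.78. The fractions overlapped in both conditions, with the highest GFP- value in vehicle replicate 1 and the highest GFP+ value in vehicle replicate 2. The difference was -1.0001 in vehicle pools (95% confidence interval -2.07 to 0.07, adjusted p = 0.324, limma, lower in 3 of 5 pools) and -0.70 in odor pools (-1.78 to 0.37, adjusted p = 0.593, lower in 4 of 5). Without vehicle replicate 2 the vehicle difference was -1.54 and passed (adjusted p = 0.0486).

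Alox5ap and Ltc4s act in leukotriene synthesis: Alox5ap encodes the protein that presents arachidonic acid to 5-lipoxygenase, and Ltc4s the synthase that joins glutathione to leukotriene A4 to give the first cysteinyl leukotriene. Both are known from white blood cells as well as from tuft cells. Alox5ap read 9.97, 9.58, 9.28, 9.90 and 11.34 in vehicle GFP- cells and 7.11, 7.38, 6.82, 6.94 and 7.60 in vehicle GFP+ cells. Odor GFP- cells gave 9.73, 8.81, 9.09, 9.43 and 10.92, and odor GFP+ cells 7.21, 6.66, 6.54, 6.96 and 7.77. Replicate 5 was the highest array in each of the 4 groups, and the fractions did not overlap. Alox5ap was 7.17-fold lower in GFP+ cells of vehicle pools (-2.84, SE 0.24, adjusted p = 2.9e-06, limma) and 5.91-fold lower in odor pools (-2.56, adjusted p = 8.0e-06). Its GFP+ means, 7.17 ± 0.32 in vehicle and 7.03 ± 0.49 in odor pools (SD, n = 5), were the only GFP+ means of the 8 genes above the background range.

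Ltc4s read 6.99, 6.75, 7.33, 6.71 and 6.98 in vehicle GFP- cells and 5.82, 6.03, 5.70, 5.97 and 5.95 in vehicle GFP+ cells. In odor GFP- cells it read 6.94, 6.43, 6.80, 6.95 and 7.14, and in odor GFP+ cells 6.02, 5.67, 5.22, 5.13 and 6.11. The fractions did not overlap, although GFP- signals were little above the background range. Ltc4s was at least 2.08-fold lower in GFP+ cells of vehicle pools (-1.06, SE 0.22, adjusted p = 0.0059, limma) and at least 2.33-fold lower in odor pools (-1.22, adjusted p = 0.00228).

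Il25 and Chat make the other known signals of these cells, interleukin 25 and, through choline acetyltransferase, acetylcholine. Il25 read 5.29, 4.97, 4.92, 4.95 and 6.21 in vehicle GFP- cells and 4.32, 5.00, 3.70, 4.31 and 4.85 in vehicle GFP+ cells. The odor GFP- arrays gave 4.83, 5.16, 5.26, 5.26 and 6.88, and the odor GFP+ arrays 4.45, 5.07, 4.29, 4.20 and 4.80. All 4 group means were near background, so no fold is given, and the test was not passed in vehicle pools (adjusted p = 0.105, limma, lower in 4 of 5 pools) or odor pools (adjusted p = 0.0778, lower in 5 of 5). Il25 passed in vehicle pools without vehicle replicate 2 (adjusted p = 0.0392) and in odor pools without vehicle replicate 2 (0.0496), without odor replicate 2 (0.0482) or with a term for the replicate 5 arrays (0.0381).

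Chat read 2.92, 3.21, 4.05, 3.04 and 3.86 in vehicle GFP- cells and 3.28, 3.44, 2.82, 3.11 and 3.18 in vehicle GFP+ cells. The odor GFP- arrays gave 3.94, 3.75, 3.46, 3.89 and 4.86, and the odor GFP+ arrays 3.06, 3.52, 2.89, 2.91 and 3.21. Every value was below the range of background medians. The test was not passed in vehicle pools (adjusted p = 0.732, limma, lower in 2 of 5 pools) or in odor pools (adjusted p = 0.0774, lower in 5 of 5), and in odor pools it was passed without vehicle replicate 1 (adjusted p = 0.0463). On these arrays the markers that define the cholinergic side of the cell type were therefore not measured above background, while Trpm5, Pou2f3 and Hepacam2 were.

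**Figure D2:**
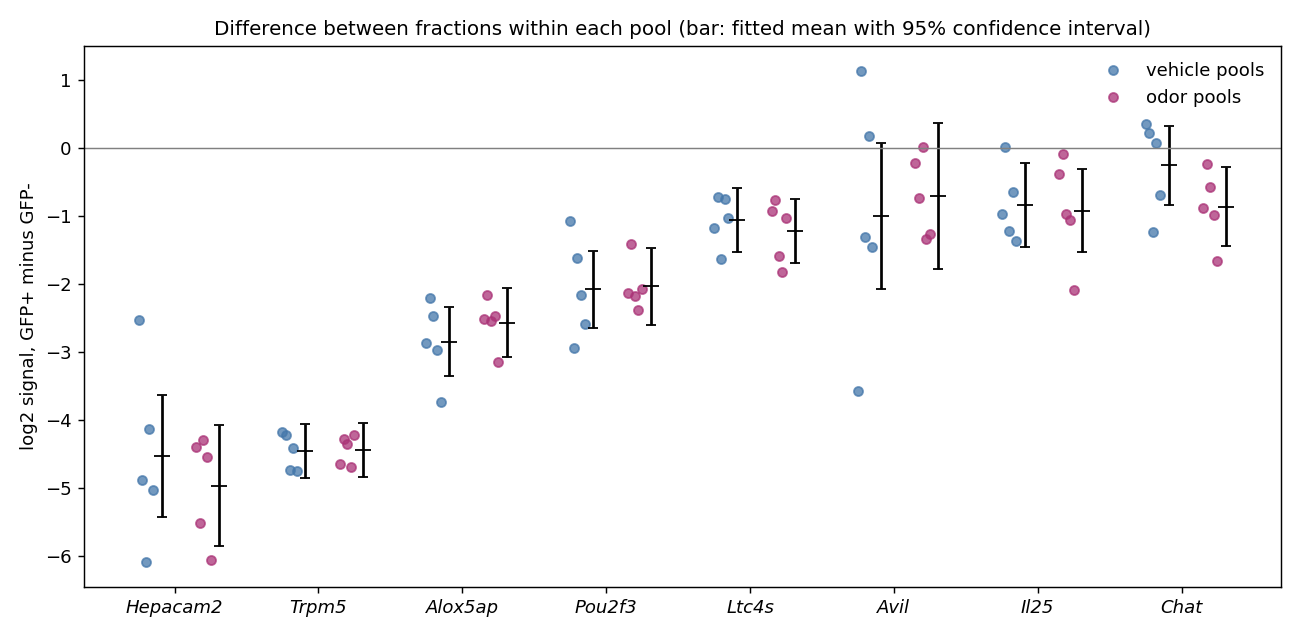
Difference in log2 signal, GFP+ minus GFP- (vertical axis), within each of the 5 vehicle and 5 odor pools (points) for the 8 genes (horizontal axis), with the fitted mean and its 95% confidence interval (bars). Trpm5 has the tightest points, between -4.16 and -4.74, whereas Hepacam2 and Avil scatter over several log2 units in vehicle pools.

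The second question was whether the odor changed these genes. No member passed the test in GFP- cells, in GFP+ cells or in the difference between fractions (0 of 8 each, adjusted p of 1.00 throughout, limma), and no unadjusted p of a member was below 0.05 in any of the comparisons. No probe set at all passed in them, so the share called was 0% in each. At an unadjusted p below 0.05 there were 269 probe sets (1.21%) in the difference between fractions, 61 (0.27%) in GFP+ cells and 30 (0.14%) in GFP- cells. Each share lay below the 5% that chance gives, and why was not tested. The lack of calls therefore does not show that the odor had no effect. In GFP- cells, where the means of all but Il25 and Chat were above the background range, Trpm5 differed between odor and vehicle by -0.04 (95% confidence interval -0.73 to 0.66), Pou2f3 by 0.14 (-0.75 to 1.04) and Ltc4s by -0.10 (-0.67 to 0.47). The intervals were wider for Alox5ap, at -0.42 (-1.46 to 0.62), Avil, at -0.54 (-1.85 to 0.76), and Hepacam2, at 0.26 (-1.14 to 1.67). In GFP+ cells the differences of the 8 genes lay between -0.27 for Ltc4s and 0.18 for Pou2f3. The GFP+ tests here had no replicate block, although the replicate numbers were taken to pair these samples. With that block 0 of the 8 members were called either. The change of the sort with odor was 0.02 for Trpm5 (-0.55 to 0.58) and -0.43 for Hepacam2 (-1.70 to 0.83).

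**Figure D3:**
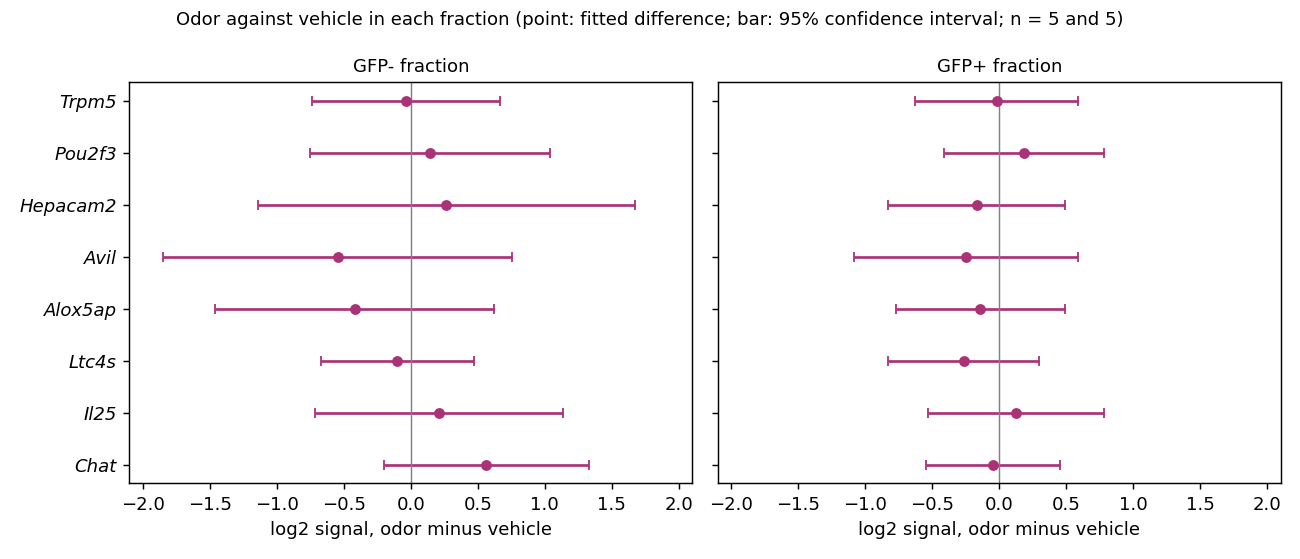
Fitted difference in log2 signal between odor and vehicle samples (horizontal axis) for the 8 genes (vertical axis) in the GFP- and the GFP+ fraction, n = 5 against 5, with 95% confidence intervals. Every interval includes 0, and that of Trpm5 in GFP- cells runs from -0.73 to 0.66. The fits had no replicate block.

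The rest of the sensory pathway was divided unevenly. The counts of this list and of those below stand beside the shares of all probe sets called lower. These were 6.86% in vehicle and 5.82% in odor pools. Of 12 measured genes of taste transduction, Plcb2 and Gnat3 were called lower in GFP+ cells in both conditions and the other 10 were not called (median difference 0.07 in vehicle and -0.05 in odor pools). Plcb2, the phospholipase that acts upstream of TRPM5, fell by 1.78 or more in vehicle (SE 0.28, adjusted p = 0.000675, limma) and fell by 1.81 or more in odor pools (adjusted p = 0.000717). Gnat3, the G-protein subunit gustducin, was near background in all groups, with means of 4.77 and 3.11 in vehicle GFP- and GFP+ cells (adjusted p = 0.00122), and its call in odor pools was lost without odor replicate 3, 4 or 5 (adjusted p from 0.0739 to 0.0872). Of 35 bitter taste receptors, whose ligands can excite such cells, none was called in vehicle pools (0 of 35), and 1 was called higher without vehicle replicate 1. At an unadjusted p below 0.05 there were 2 of 35 in vehicle pools, against 18.1% of all probe sets. In odor pools 1 of 35, Tas2r108, was called lower (-0.997, adjusted p = 0.046), a call lost when any 1 odor replicate or vehicle replicate 4 was left out (adjusted p from 0.0616 to 0.174), and also with quantile normalization, centring or no pool block (from 0.113 to 0.130). With centring 1 of 35 was called higher in odor pools. At least 34 of the 35 receptors were near background in each group.

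Among other genes of the tuft cell programme, of 6 transcription factors 4 were called lower in GFP+ cells in both conditions. Spib, an ETS factor of tuft cells and of lymphoid and myeloid cells, fell by 4.12 or more in vehicle pools (adjusted p = 3.6e-05, limma) and Runx1, a factor of blood cells and some epithelia, fell by 3.54 or more (5.0e-05). Sox9, also a factor of gland and progenitor cells, fell by 4.09 (1.3e-06), and Gfi1b, a repressor of tuft and blood cells, by 1.03 (0.0274). The vehicle call of Gfi1b was lost without vehicle replicate 1, 3 or 5 (adjusted p from 0.0761 to 0.145), with both pools numbered 5 left out and under both other scalings. Its odor call was lost without any 1 odor replicate (from 0.0597 to 0.110). Of 15 measured genes of a tuft cell signature 10 were called lower in vehicle pools and 9 in odor pools, with medians of -1.66 and -1.51. Over all probe sets 6.86% were called lower in vehicle and 5.82% in odor pools. Under the alternatives the signature count ranged from 7 to 10 in vehicle and from 8 to 10 in odor pools. That of the 6 transcription factors ranged from 3 to 5 in vehicle and from 3 to 4 in odor pools. In GFP+ cells 11 of the 15 were near background in each condition. In vehicle pools Cd24a, a surface glycoprotein, fell by 5.67 or more (adjusted p = 5.4e-08), Rgs13, a regulator of G-protein signalling, fell by 3.90 or more (1.6e-06), Lrmp fell by 3.40 or more (2.3e-05) and Sh2d7 fell by 3.03 or more (0.000283). Dclk1, a kinase widely used to mark tuft cells, had group means of 7.86 to 8.31 and did not pass in vehicle (-0.45, adjusted p = 0.614) or odor pools (-0.10, 0.958).

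The cholinergic genes gave no calls. Of 4 genes for the handling of acetylcholine, Bche, Ache, Slc5a7 and Slc18a3, all were near background in every group and none was called (0 of 4, none at an unadjusted p below 0.05). None of 9 acetylcholine receptors was called either (0 of 9 in both conditions, with 0 and 1 at an unadjusted p below 0.05 in vehicle and odor pools). At least 7 of the 9 receptors were near background in each group. Of all probe sets 18.1% in vehicle and 16.0% in odor pools were below that p.

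Around Alox5ap and Ltc4s, 4 of 10 measured genes of eicosanoid synthesis were called lower in GFP+ cells in vehicle pools and 4 of 10 in odor pools, with medians of -0.99 and -0.91. Alox5, the 5-lipoxygenase that Alox5ap serves, fell by 4.21 or more (SE 0.38, adjusted p = 5.6e-06, limma) in vehicle and fell by 4.42 or more (3.9e-06) in odor pools. Ptgs2, the inducible cyclooxygenase, fell by 3.49 or more (0.00034) in vehicle and fell by 3.06 or more (0.00114) in odor pools. Pla2g4a, which frees arachidonic acid, fell by 2.49 or more in vehicle pools (0.000321), and in odor pools its means were 6.08 and 4.04 in GFP- and GFP+ cells (0.00182), both near background; without the pool block the odor test was not passed (0.0535). Hpgds, the haematopoietic prostaglandin D synthase, fell by 1.64 or more in vehicle pools (0.00458; 0.0558 without the pool block) and gave -1.08 in odor pools (0.0691), where it passed without vehicle or odor replicate 1 or 2 (adjusted p from 0.033 to 0.0477). Of 4 measured leukotriene receptors, Ltb4r1, for leukotriene B4, was called in both conditions, with means of 6.26 and 3.41 in vehicle GFP- and GFP+ cells (adjusted p = 0.000257). Cysltr1, for cysteinyl leukotrienes, was called only in vehicle pools (adjusted p = 0.0235 against 0.0587 in odor pools). The vehicle call was lost without vehicle replicate 3, 4 or 5 (from 0.0668 to 0.1004) and also with centring, without both pools numbered 5 or without the pool block (from 0.0995 to 0.116). The odor test was passed without vehicle replicate 1 or 2 (0.0438 and 0.0447), and the difference between conditions was not called. Cysltr2 and Oxgr1 were called in neither condition. All 4 measured receptors were near background in every group.

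Of 9 genes of the type 2 cytokine axis, through which interleukin 25 acts, 3 receptor chains were called lower in GFP+ cells in both conditions and no cytokine was. Il13ra1 fell by 2.94 or more in vehicle pools (adjusted p = 1.2e-06, limma), and Il17ra fell by 2.17 (0.000137). The call of Il17ra in odor pools was lost without the pool block (0.0945), which left 2 of 9. Il17rb, the chain specific for interleukin 25, had means of 6.06 and 4.01 in vehicle GFP- and GFP+ cells (0.000121), both near background. Il4ra gave -0.59 (0.308) and passed in vehicle pools without vehicle replicate 1 (0.0136).

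**Figure D4:**
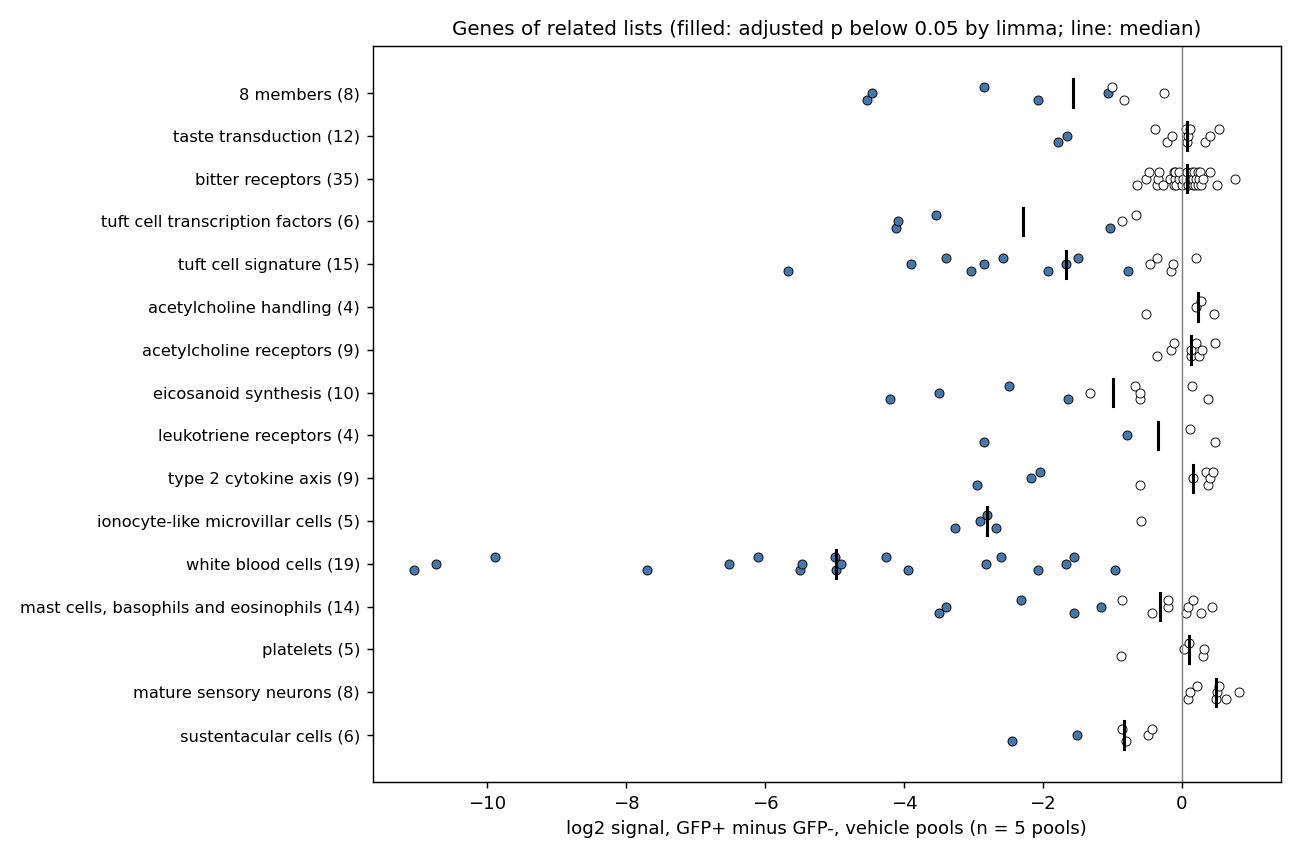
Difference in log2 signal, GFP+ minus GFP-, in the 5 vehicle pools (horizontal axis) for the 8 genes and the genes of 15 related lists (vertical axis, number of measured genes in brackets). Filled points passed the test (adjusted p below 0.05), open points did not, and the line is the list's median, which is -1.56 for the 8 genes and -4.99 for white blood cell genes.

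Genes of other cells moved in the same direction. All 19 measured white blood cell genes were called lower in GFP+ cells in vehicle pools and 18 of 19 in odor pools, with medians of -4.99 and -4.98. Under the alternatives the count ranged from 16 to 19 in vehicle and from 14 to 18 in odor pools. Their mean log2 signal lay between 10.15 and 11.56 in the GFP- arrays and between 5.46 and 6.10 in the GFP+ arrays. In GFP+ cells 14 of the 19 were near background in vehicle and 15 in odor pools. The neutrophil genes Ngp and S100a8, whose GFP+ means were above that range, fell by 11.06 (Ngp) and fell by 10.74 (S100a8) in vehicle pools, and S100a9 fell by 9.89 or more. The pan-leukocyte gene Ptprc fell by 4.91 (SE 0.43, adjusted p = 4.6e-06, limma), and Itgam fell by 6.52 or more (4.1e-08). Alox5ap, Ltc4s, Alox5, Ptgs2, Hpgds, Spib, Runx1, Ltb4r1 and Il17ra are among the genes known from white blood cells too. The part of those cells in these results was not tested for these or for any other gene, including Plcb2, Cd24a, Rgs13 and Lrmp. Of 14 genes of mast cells, basophils and eosinophils 5 were called lower in vehicle pools, among them Prg2, with the list's largest difference, Hdc, for histamine synthesis (-3.39, adjusted p = 6.9e-05), Cpa3, a mast cell protease (means of 6.94 and 4.63, 0.00181), and Mcpt8, while the mast cell genes Fcer1a, Ms4a2, Mcpt4 and Tpsb2 were not. In odor pools it was 4 of 14, or 2 of 14 without odor replicate 1, 3, 4 or 5. The odor call of Prg2 was lost without odor replicate 1, 3 or 5 (adjusted p from 0.0659 to 0.0954) or the pool block (0.364). That of Mcpt8 was lost without odor replicate 1, 3 or 4 (from 0.0703 to 0.118), and that of Cpa3 without odor replicate 4 or 5 (0.0506 to 0.0598). Without both pools numbered 5 the odor calls of Mcpt8 and Cpa3 were lost too. The vehicle call of Mcpt8 was lost without vehicle replicate 4 or without both pools numbered 5 (adjusted p = 0.0564 and 0.0552, limma). Of 5 platelet genes none was called in either condition (0 of 5, with 1 at an unadjusted p below 0.05 in each, Itgb3, which was called lower in both without vehicle replicate 2, adjusted p = 0.00317 and 0.0204). Of all probe sets 18.1% in vehicle and 16.0% in odor pools were at an unadjusted p below 0.05.

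Other epithelial cells also differed. Of 5 genes of the second microvillar class, the ionocyte-like cells, 4 were called lower in GFP+ cells in both conditions: in vehicle pools Coch fell by 3.26 (adjusted p = 0.000266, limma), the transcription factor Foxi1 fell by 2.90 (0.00116), the chloride channel gene Cftr fell by 2.80 or more (0.00471) and Ascl3 fell by 2.68 or more (0.000387). The odor calls of Coch and Ascl3 were lost without the pool block (0.0733 and 0.0874). Hepacam2 shares this direction, and which of the microvillar cells gave its signal was not tested. Of 6 genes of supporting (sustentacular) cells, 2 were called lower in vehicle pools, Sult1c1 and Cyp1a2, and 0 in odor pools, where 2 were at an unadjusted p below 0.05. Both vehicle calls were lost without vehicle replicate 3 or 5 (adjusted p from 0.0527 to 0.0888), that of Cyp1a2 also without replicate 2 or 4, and both passed in odor pools without odor replicate 2 (0.0420 and 0.0380). Of 8 mature-neuron genes none was called in either condition (0 of 8, with 2 and 1 at an unadjusted p below 0.05), and their medians were 0.50 and 0.42. With quantile normalization or centring 1 of them, Ano2, was called higher in vehicle pools (adjusted p = 0.00786 and 0.03). The mean log2 signal of these 8 genes lay between 16.72 and 18.44 on the arrays, whose highest values ran from 18.49 to 19.86. Whether this limited their differences was not tested. Over all probe sets 18.1% in vehicle and 16.0% in odor pools were at an unadjusted p below 0.05.

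How the genes varied together was examined over the 10 GFP- arrays, each centred on its median, in 52 pairs, 28 between members and the others with Ptprc, Itgam or Foxi1. None of the 52 correlations passed after Benjamini-Hochberg adjustment. The highest was that of Trpm5 with Ltc4s (Pearson r = 0.85, permutation p = 0.00158, adjusted 0.0822; Spearman rho = 0.84, permutation p = 0.00353, adjusted 0.184). It was 0.69 without the 2 arrays farthest from the median of Trpm5 and 0.79 over the 8 arrays other than replicate 5. For Trpm5 with Pou2f3 r was 0.82 (permutation p = 0.00486, adjusted 0.126; rho = 0.76, permutation p = 0.0142, adjusted 0.293), 0.86 without the 2 farthest arrays and 0.73 without replicate 5. Alox5ap had r = -0.24 with Trpm5 (permutation p = 0.503, adjusted 0.780; rho = -0.41, p = 0.247, adjusted 0.772), which turned to 0.21 without the 2 farthest arrays and to 0.20 without replicate 5. With Itgam it had r = 0.74 (permutation p = 0.0133, adjusted 0.230; rho = 0.70, p = 0.0307, adjusted 0.346), which was 0.43 without the 2 farthest arrays and 0.58 without replicate 5. Hepacam2 had r = 0.21 with Trpm5 (permutation p = 0.577, adjusted 0.826; rho = 0.18, p = 0.631, adjusted 0.910), which was -0.06 without the 2 farthest arrays and 0.49 without replicate 5. With Foxi1 it had r = 0.60 (permutation p = 0.0586, adjusted 0.439; rho = 0.75, p = 0.0169, adjusted 0.293), which was 0.71 and 0.58. The r of Alox5ap and of Hepacam2 with Trpm5 thus rested on a few arrays. Alox5ap with Ptprc had r = 0.68 (permutation p = 0.0301, adjusted 0.326), which was 0.55 without the 2 farthest arrays and 0.44 without replicate 5. Pou2f3 with Ptprc had r = -0.67 (permutation p = 0.0313, adjusted 0.326), which was -0.25 and -0.45. Both values of a pair came from the same array and shared its centring, and the 5 vehicle and 5 odor arrays were pooled.

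Over the same arrays the symbols most like Trpm5 by Pearson r were Sycp2 (0.93), Supt20 (0.93), Adgrg6 (0.92), Smo (0.91) and Cited4 (0.91). Of these only Adgrg6, an adhesion G-protein-coupled receptor gene, was also called in the sort of vehicle pools, with signals of 11.41 to 13.40 in GFP- cells and an adjusted p of 6.5e-10 (limma). Sycp2, Smo and Cited4 had signals from 3.14 to 5.46, within or below the background range. The symbols most like Alox5ap were Nudcd2 (0.92), Dbf4 (0.92), Ifi214 (0.92), Sirt5 (0.91) and Brk1 (0.89), of which Ifi214 was called (adjusted p = 0.00999). Those most like Ltc4s were Piezo2 (0.99), 4930402F06Rik (0.96), Lilra5 (0.96), Tbc1d12 (0.96) and Prkg2 (0.96), none of which was called. All of these but Tbc1d12 had signals from 2.59 to 4.73, below the background range, and for 4930402F06Rik rho was 0.62 without replicate 5. These are the highest of all probe sets with a symbol over 10 arrays and are given as a description.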

How the data were processed

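Cells of the olfactory mucosa were measured in 20 samples, the GFP- and GFP+ fractions of 10 pools of 3 mice. Per the labels' protocols, 50 to 100 ng of RNA went into labelled cRNA. Affymetrix Expression Console made the values, per the submitters' processing notes. Its version and method (background, normalization, summary) were not given in the sources used here. Each deposited value is a log2 signal of a probe set, judged by its range, and was taken unchanged. The 6640 control rows of 28846 were left out of the tests, and 22206 gene probe sets were tested, of which 2634 had no symbol. The file gives no detection calls. How many arrays there are limits the precision. That samples of a group are separate pools of mice comes from the labels. No pair of arrays shared more than 0.00901% of its values.

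R 4.3.3 with limma 3.58.1 gave all tests across probe sets, with moderated variances and Benjamini-Hochberg adjustment over 22206 probe sets at 0.05. The GFP+ value minus the GFP- value of the same pool was modelled in 1 fit with all 10 pools, which gave the sort in each condition and the contrast of both. Odor and vehicle samples of a fraction were compared without a block. Correlations were tested with 100000 permutations in Python 3.11.15. The code was tested on simulated data.

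Odor and vehicle samples share replicate numbers. Deviations from the group mean, set side by side for samples of 1 number, correlated at 0.16 to 0.86 in GFP+ cells, all above the limit of 0.1. There the numbers were taken to pair the samples. In GFP- cells the lowest was -0.38 and in the differences -0.48, so there they were not. The GFP+ tests and intervals given in the results still ignore the pairing. It entered only through the alternative fit with the replicate as a block.

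The 8 genes and all lists were chosen with earlier results of these data known. The lists were taste transduction, bitter receptors, tuft cell transcription factors, tuft cell signature, acetylcholine handling, acetylcholine receptors, eicosanoid synthesis, leukotriene receptors, type 2 cytokine axis, ionocyte-like microvillar cells, white blood cells, mast cells with basophils and eosinophils, platelets, mature sensory neurons and sustentacular cells. Named were the 8 genes always, up to 4 genes of each list by the size of their change in vehicle pools, Ptprc, Itgam, Omp and S100a5, and the 5 symbols with the highest r to Trpm5, Alox5ap and Ltc4s. Gnal, Stoml3, Dclk1, Fcer1a, Ms4a2, Mcpt4, Tpsb2 and Ifi214 were named for their role or singled out after their values were seen, and members of lists of at most 4 measured genes were all named. Itpr3 was not analysed here. The alternatives tried were array centring, quantile normalization, an intensity trend, a filter on the dimmest 25% of probe sets, a fit without the pool or with the replicate as a block, leaving out the pools numbered 5 or each pool in turn and, added after seeing the data, a term for the arrays of replicate 5.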

Additional observations from a re-analysis of the deposited data

Results flagged for a closer look

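In 48 checks for a single value far from the other 4 of its set, 4 values stood apart, where chance gives about 5%, or 1 in 20. All 4 were signals of single arrays set against their group, and not all of the 48 checks were of that kind. The checks share arrays and are not independent. Il25 read 6.88 in odor GFP- replicate 5, where the others lay between 4.83 and 5.26, and 6.21 in vehicle GFP- replicate 5, where the others lay between 4.92 and 5.29. Hepacam2 read 12.76 in odor GFP- replicate 5 against 10.20 to 10.78 in the others. These 3 values lie on 2 arrays of replicate 5, which have the higher median signals, and the part of that in these values was not tested. Avil read 7.41 in vehicle GFP+ replicate 2 against 5.41 to 5.93 in the others, and that array correlated with its group at 0.946.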

How the results depend on the processing

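The 5 members called lower in vehicle pools and the 5 in odor pools kept their direction and their call under all 17 alternatives run (Trpm5 from -4.53 to -4.21 in vehicle and from -4.49 to -4.23 in odor pools; Ltc4s with adjusted p up to 0.0396 and 0.0177). Some of these alternatives could change only the test and not the fitted difference. This holds for leaving out a pool of the other condition and for the intensity trend. It also holds for the dim filter, the fit without the pool block and the replicate 5 term. The number called ranged from 5 to 7 in vehicle and from 5 to 6 in odor pools, through the changes of Il25, Avil and Chat given above. Without vehicle replicate 2 Il25 was at -1.05 and Avil at -1.54, and 786 instead of 501 probe sets were called higher in vehicle pools. Without the pool block 979 probe sets were called lower and 219 higher in vehicle pools, and 844 and 206 in odor pools. In odor pools it left 2 of 10 eicosanoid and 2 of 5 ionocyte-like genes called. Centring gave 1169 and 807 higher. With the replicate block, as without it, 0 members were called in any of the comparisons of odor with vehicle, so the pairing changed no call. Chat has 16 alternatives, since the filter on dim probe sets removed it, and the planned comparison of several probe sets per gene gave nothing because each member had 1. Signals near background limit what can be said of Chat, Il25 and the GFP+ levels of all members but Alox5ap.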
